A study of Mus musculus with 6 samples.

Results

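The genes that encode the proteins of the cytosolic ribosome were followed in 6 libraries of cultured mouse epidermal keratinocytes, the cells that build the outer layer of the skin. Members were taken by symbol: Rps or Rpl followed by a number, with an optional a or x, together with Rplp0, Rplp1, Rplp2 and Rpsa, and without processed-pseudogene symbols. The rule found 76 of the 23420 genes counted, 30 for the small and 46 for the large ribosomal subunit. All 6 came from cells whose Gata6 gene, which encodes a zinc finger factor, is flanked by loxP sites on both alleles. The libraries labelled iKO (induced knockout, n = 3) also carried K14CreERT2, a Cre recombinase that works only with tamoxifen and is driven by the promoter of keratin 14, a gene of basal keratinocytes. The libraries labelled WT (n = 3) lacked the recombinase. Cells of both groups, at passage 8 to 10 in low-calcium medium, were given 1 µM 4-hydroxytamoxifen for 6 hours. The comparison asks how transcript levels differ between keratinocytes with and without the induced deletion.

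A ribosome has a small subunit, which reads the mRNA, and a large subunit, which joins amino acids, and nearly every ribosomal protein is present in a single copy per ribosome. Ribosomal protein mRNAs are among the most abundant in growing cells, and they share a terminal oligopyrimidine tract, a run of C and T (U in RNA) at their 5′ end through which the mTORC1 pathway and Larp1 set their translation. In skin, mouse mutants of single ribosomal protein genes are known for dark footpads, white spots and skeletal defects, with the p53 pathway involved in several of them.

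The targeted gene went against its labels. Gata6 had 14.2, 21.0 and 17.0 CPM in iKO 3, iKO 4 and iKO 33, against 2.86, 0.519 and 5.37 CPM in WT 2, WT 3 and WT 4, where CPM is the read count scaled to a common library size with edgeR's TMM factors. The log2 fold change was 2.60 (SE 0.72, edgeR quasi-likelihood adjusted p = 0.180, DESeq2 adjusted p = 0.0013), so every direction given here is between the libraries labelled iKO and those labelled WT. Gene counts were 32751896 to 83337263 per library labelled iKO and 21943467 to 79055307 per library labelled WT. Whether the libraries of a group are separate cultures or animals is not stated in the labels, and the p-values then reflect only the scatter among these 6 libraries, part of which may be technical. Xist had 0.0824 to 2.62 CPM in the libraries labelled iKO, against 605 to 889 CPM in those labelled WT, and the Y-linked Ddx3y had 27.95 to 41.1 CPM, against 0 to 0.138 CPM. Sex thus went with the label, and effects of sex and of genotype cannot be told apart. The 7 keratinocyte markers summed to 32793 to 48085 CPM in libraries labelled iKO and to 31283 to 43860 CPM in those labelled WT. Single markers differed, with 3 of 7 higher and 4 lower in libraries labelled iKO. Of these 7, 2 were lower at an unadjusted p under 0.05 in edgeR, where 7.7% of all tested genes were. These were Trp63, at 191 to 205.4 CPM against 307 to 331 CPM (a difference of -0.68 in log2, SE 0.10, edgeR adjusted p = 0.0529, DESeq2 adjusted p = 3.73e-07), and Krt15, at 2.88 to 8.98 CPM against 7.84 to 17.97 CPM (a difference of -1.28 in log2, SE 0.49, edgeR adjusted p = 0.289), and their part in the results was not tested. The sums were 0.959 to 3.38 against 0.692 to 2.64 CPM for 8 fibroblast markers, 5.69 to 8.47 against 6.08 to 11.9 CPM for 7 melanocyte markers, 0.448 to 1.04 against 0.569 to 2.03 CPM for 6 immune markers and 7.29 to 8.88 against 9.31 to 19.0 CPM for 4 endothelial markers. Dcn, Lum, Dct, Cd207 and Emcn were at 0 in all 6 libraries. The endothelial sums did not overlap between the groups, and their part in the results was not tested.

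Promoter sequences were compared first, because the tract at the start site is the feature by which this family is recognised. RefSeq windows on GRCm38.p6, from 250 bases before the annotated start to 50 after it, were found for 56 of the 76 members. A sense-strand run of at least 8 C or T that begins with C, anywhere between 50 bases before and 50 after the start, was present in 46 of the 56 (82.1%), against 28.3% of all 27025 windows. Such a run need not lie at the 5′ end of the mRNA, so these shares do not measure the terminal tract itself. The tracts below belong to members whose values are described later, and the capitals mark the tract.
Rpl27a (chr7:109519186-109519215, plus strand): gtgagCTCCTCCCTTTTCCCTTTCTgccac
Rpl35 (chr2:39005114-39005143, minus strand): ccccgCCCTTTCCTCTTTCTCTCgaaccag
Rpl7a (chr2:26910790-26910819, plus strand): caattCCCTCTTCTTTCTTTCTCCagcagc
Rps6 (chr4:86857344-86857373, minus strand): tcgggCCTCTTTTTCgtgacgcctcccagg
Rplp2 (chr7:141447642-141447671, plus strand): agcgtCTTCCTTTCgccgccggacgccgcc
Rpl38 (chr11:114668575-114668604, plus strand): tcgttCTTTCCCCgttctcttcggttctca
The tract ran for 20 bases in Rpl27a and for 8 in Rpl38. The 10 members whose window held no such run were Rpl10a, Rpl19, Rpl23, Rpl24, Rplp0, Rps13, Rps28, Rps3, Rps4x and Rpsa.

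Other motifs were searched in the same windows, each by itself, so that a base could count for more than 1 motif. All but TATAAA were searched on both strands of the whole window. CCGGAA, the core of many ETS-family sites, was found in 28 of the 56 windows (50%), against 15.2% of all windows. GGGCGG, a GC box, was found in 33 (58.9%), against 35.9%, and the E-box CACGTG in 5 (8.93%), against 7.24%. GATA with A or T before it and A or G after it, the usual letters of a GATA site, was found in 11 (19.6%), against 30.2%. TATAAA between 45 and 16 bases before the start was found on the sense strand in 0 of 56 windows, against 2.36% of all windows. These are matches of letters, not measured binding.

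Transcript levels per length were close together in most of the family. Over all 6 libraries, 72 members had a mean above 10 CPM, and divided by the length of the annotated mRNA they had a median of 1256 CPM per kb, with quartiles of 959 and 1629.8 CPM per kb. Of these 72, 63 lay within 2-fold of that median. The highest was Rplp1, a stalk protein of the large subunit, at 4407 CPM per kb, and the lowest was Rpl37, at 257 CPM per kb. A value per kb depends on which mRNA is annotated: the chosen transcript of Rps20 is 3706 bases long, the longest of the family, where the median member has 705. The annotated mRNA of Rpl37 has 835 bases. Its mean of 214.5 CPM was also the lowest of the 72 before division by length.

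**Figure D1:**
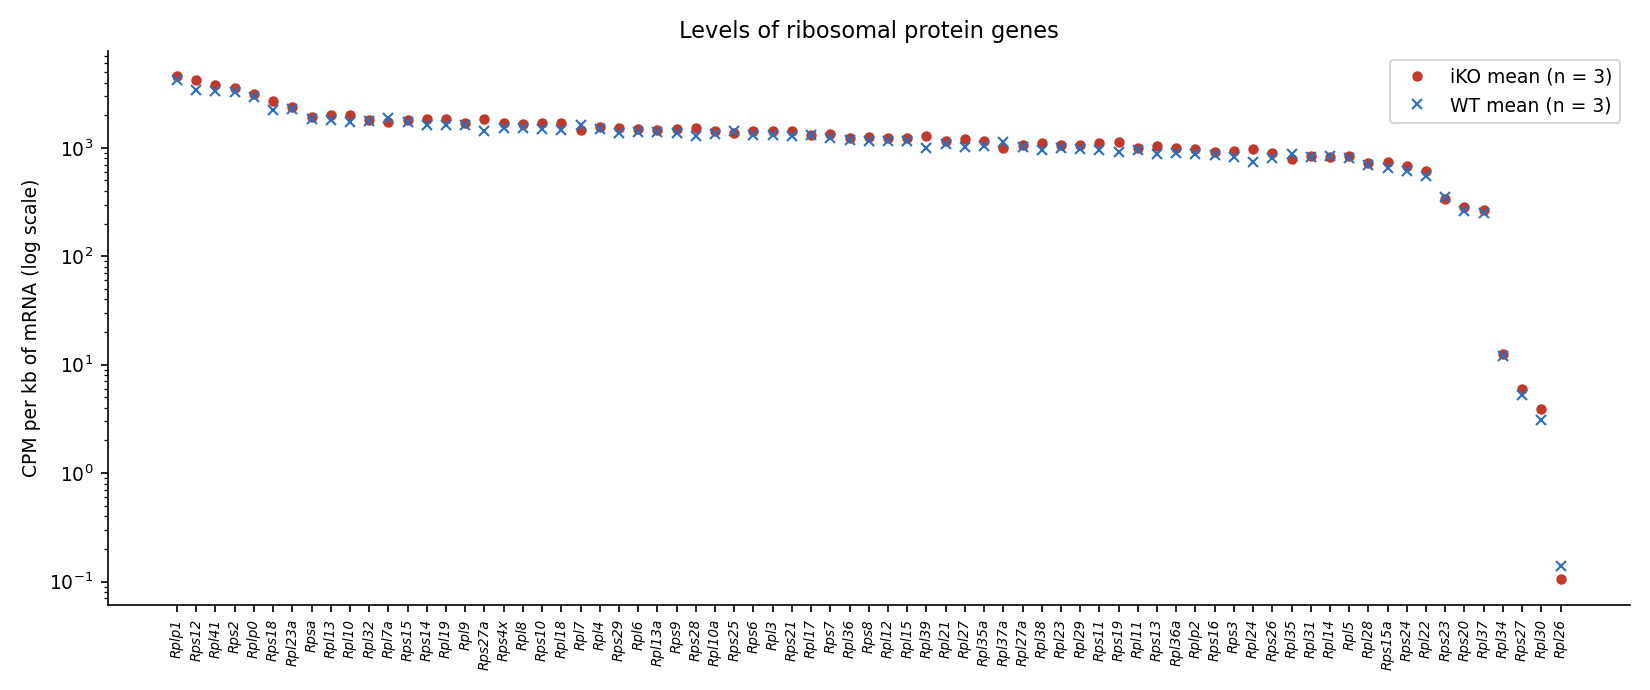
Mean level of members in the libraries labelled iKO (dots, n = 3) and in those labelled WT (crosses, n = 3), in CPM per kb of annotated mRNA on a log axis, with members in order of level. The band of members above 10 CPM, 69 of them plotted, runs from 257 to 4407 CPM per kb, and Rpl34, Rps27, Rpl30 and Rpl26 stand far below it.

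The other 4 members were nearly uncounted in every library. Rpl34 had 12.3 CPM per kb, Rps27 5.61, Rpl30 3.51 and Rpl26 0.122, and no mean above 5.91 CPM, where the lowest of the other 72 had 214.5 CPM. Rpl26, which lines the exit of the peptide tunnel, had 1, 6 and 0 reads in iKO 3, iKO 4 and iKO 33, against 2, 1 and 4 reads in WT 2, WT 3 and WT 4, and was the 1 member left out of the test for low counts. Near-identical copies elsewhere in the genome are common in this family. In the GENCODE annotation of GRCm38, 73 of the 76 members had at least 1 copy with 95% identity over 80% or more of the coding sequence, 569 copies in all, of which 554 are annotated as pseudogenes. The first 60 coding bases of 3 of the low members are shown with a close copy. Capitals mark bases of a copy that differ from the member.
Rpl26 (chr11:68901583-68906989, plus strand): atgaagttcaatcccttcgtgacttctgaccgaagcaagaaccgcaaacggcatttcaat
Gm15772, a processed pseudogene (chr5:3236431-3236868, plus strand): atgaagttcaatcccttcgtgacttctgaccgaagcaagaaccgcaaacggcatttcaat
Rpl30 (chr15:34440505-34443640, minus strand): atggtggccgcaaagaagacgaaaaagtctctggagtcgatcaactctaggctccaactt
Rpl30-ps1, a processed pseudogene (chr6:38376807-38377154, plus strand): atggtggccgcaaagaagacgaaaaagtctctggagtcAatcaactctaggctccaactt
Rps27 (chr3:90212522-90213651, minus strand): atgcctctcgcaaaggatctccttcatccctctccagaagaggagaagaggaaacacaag
Rps27rt, annotated as protein coding (chr9:114982366-114982739, minus strand): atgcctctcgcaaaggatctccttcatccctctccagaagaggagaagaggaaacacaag
Rps27rt was 100% identical to Rps27 over the aligned coding bases, and Gm15772 was 99.5% identical to Rpl26. Of all 50-base windows of the coding sequence, 100% were shared with a copy for Rps27, 87.3% for Rpl26, 83.1% for Rpl30 and 72.2% for Rpl34. In the whole family 29 members had every window in a copy, and 28 of those had means of 324 to 1873 CPM. These windows cover the coding sequence alone, and the part of copies in the low counts was not tested. Read length is not given in the sources used here, and reads that align to several places are not counted for any gene in the deposited table, so absolute levels of members with copies are uncertain.

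**Figure D2:**
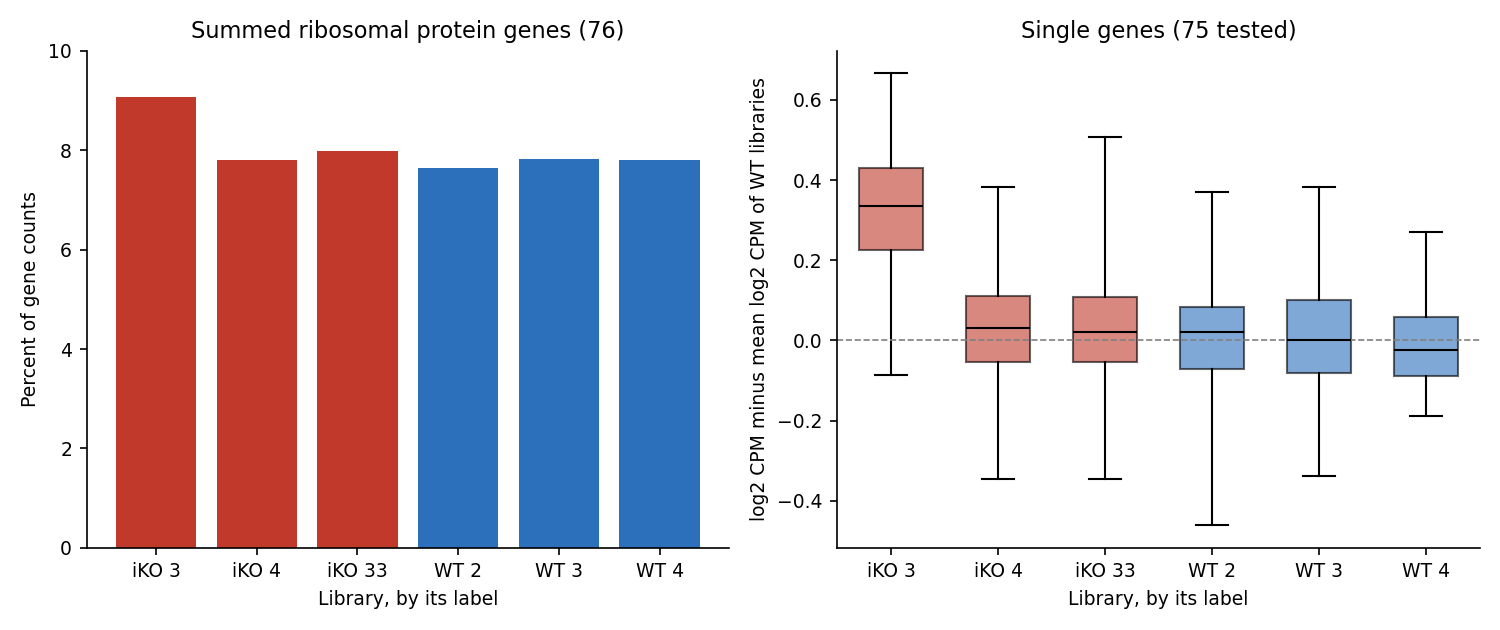
Ribosomal protein genes in each library: their share of gene counts in percent and the distribution of the members' log2 CPM relative to the mean of the libraries labelled WT (box: quartiles, line: median). Library iKO 3 has a share of 9.06% and a median deviation of 0.34, and the other 5 libraries have shares of 7.63% to 7.98% and medians near 0.

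Library iKO 3 stood apart from the other 5 in the whole family. The members took 9.06%, 7.81% and 7.98% of gene counts in iKO 3, iKO 4 and iKO 33, against 7.63%, 7.81% and 7.81% in WT 2, WT 3 and WT 4. The means were 8.29% ± 0.678 in libraries labelled iKO and 7.75% ± 0.103 in those labelled WT (SD, n = 3 each), and 7.90% over the other two libraries labelled iKO. Relative to the mean log2 CPM of the libraries labelled WT, the median member deviated by 0.34 in iKO 3, by 0.03 in iKO 4 and by 0.02 in iKO 33. In WT 2, WT 3 and WT 4 the same median was 0.02, 0.0018 and -0.02. Library iKO 3 was the highest of all 6 for 62 of the 75 tested members, where it was the highest for 21.4% of all tested genes. Among tested genes outside the family with mRNAs under 1 kb it was the highest for 35.3%, and for 46.2% of those above 100 CPM. It was above the WT mean for 73 members, and iKO 4 and iKO 33 were above it for 45 and 43. In bulk RNA, fewer cells of a type and less RNA per cell cannot be told apart.

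The position of iKO 3 varied with mRNA length outside the family as well. Ribosomal protein mRNAs are short, under 1 kb in 59 of 76 members. Among 785 other genes with mRNAs under 1 kb the median deviation of iKO 3 from the WT mean was 0.15 (log2), and it was 0.07 in 2598 genes of 1 to 2 kb, -0.0033 in 4682 of 2 to 4 kb and -0.09 in 3302 over 4 kb. An mRNA length was known for 90.2% of the 12597 tested genes outside the family. Among the 132 other genes under 1 kb with a mean above 100 CPM the deviation was 0.19. The 58 tested members under 1 kb deviated by 0.37 and the 17 longer ones by 0.28, both above the other genes of any length class. The part that mRNA length, RNA quality or library preparation has in the level of iKO 3 was not tested. Fragments aligned to more than 1 place made up 26.5%, 24.3% and 21.7% of all counts in iKO 3, iKO 4 and iKO 33, against 30.5%, 29.5% and 29.9% in WT 2, WT 3 and WT 4, so this share was lower in every library labelled iKO.

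**Figure D3:**
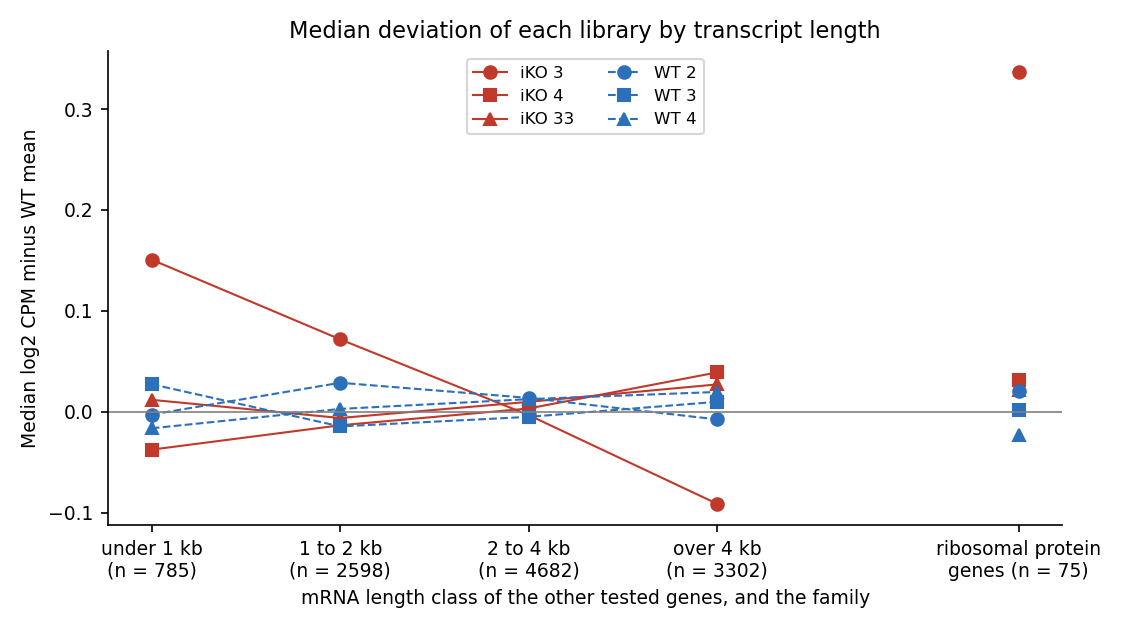
Median deviation of each library from the mean of the libraries labelled WT, in log2 CPM, for genes outside the family by class of mRNA length, with the ribosomal protein genes beside them. Library iKO 3 lies at 0.15 in the shortest class, at -0.09 in the longest and at 0.34 in the ribosomal protein genes, and the other libraries stay near 0.

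No ribosomal protein gene passed the test between the libraries labelled iKO and those labelled WT. With edgeR's quasi-likelihood test and an adjusted p of 0.05, 0 of the 75 tested members were called, where 43 of 12672 genes were (0.339%), 29 higher (0.229%) and 14 lower (0.11%) in libraries labelled iKO. At an unadjusted p under 0.05, 1 member was higher and 0 were lower, against 7.32% and 7.7% of all genes. DESeq2 also called 0 members, against 5.74% of 13250 genes. The members' adjusted p ran from 0.261 to 0.996. The SE of a member's log2 fold change was 0.11 to 0.30, with a median of 0.14, and that limits what could be seen.

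The values leaned to 1 side by a small amount. Log2 fold changes were positive for 68 members and negative for 7, where 51.2% of all tested genes were positive, and they ran from -0.17 to 0.39 with a median of 0.13, against 0.01 over all tested genes. Without iKO 3, 51 were positive and 24 negative and the median was 0.03. When libraries were scaled to the summed family instead of to all genes, 42 were positive and 33 negative, as such scaling must bring the middle to about 0. The groups did not overlap for 10 members, all higher in libraries labelled iKO, against 10.5% of all tested genes that were higher and 11.3% that were lower without overlap. Rpl24, Rps13, Rps12, Rps27a, Rpl10, Rpl19, Rps4x and Rps9 were among the 10 of 75, a share close to that of all genes.

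**Figure D4:**
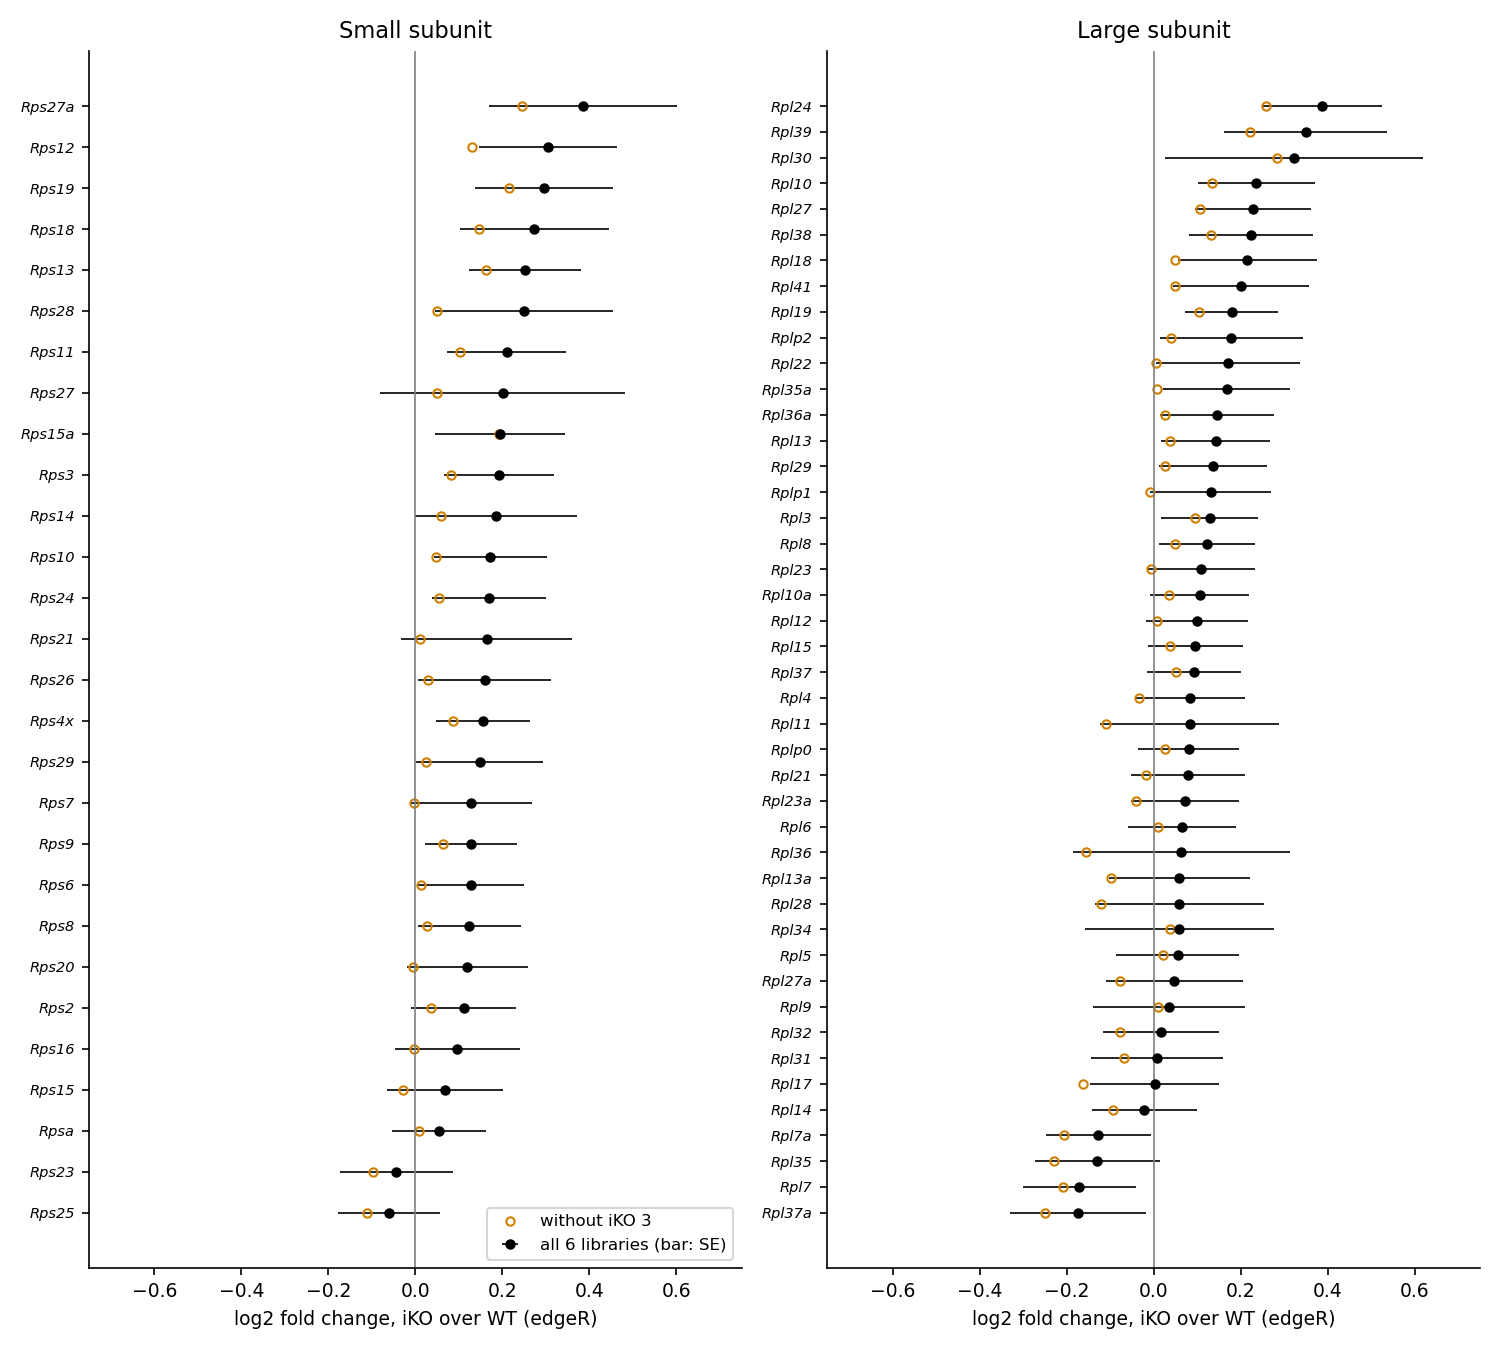
Log2 fold change of tested members (libraries labelled iKO minus those labelled WT) with the SE, in order of size within each subunit, beside the value without iKO 3, for 72 members. Values run from -0.17 to 0.39 with all 6 libraries, and most move toward 0 when iKO 3 is left out.

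In the small subunit, 28 of 30 members had positive values, with a median log2 fold change of 0.17 and of 0.05 without iKO 3. The 14 proteins of its head had a median of 0.19, and 13 were positive. Without iKO 3 the median was 0.06 and 10 were positive. Rps12, a head protein known in Drosophila for its part in cell competition, had 2546, 1842 and 1821 CPM in iKO 3, iKO 4 and iKO 33, against 1814, 1596 and 1617 CPM in WT 2, WT 3 and WT 4. The groups touched without overlap, since iKO 33 exceeded WT 2 by only a few CPM, and the log2 fold change was 0.30 (SE 0.16, edgeR adjusted p = 0.421). Rps27a, made as a fusion with ubiquitin, had 1405, 1068 and 1080.0 CPM in iKO 3, iKO 4 and iKO 33, against 643, 1035 and 1042 CPM in WT 2, WT 3 and WT 4. Its log2 fold change of 0.39 (SE 0.22, edgeR adjusted p = 0.452) came mostly from the low value of WT 2 and the high value of iKO 3. Rps25, a head protein used in initiation at several viral internal entry sites, had 837, 729.6 and 783 CPM, against 862, 859 and 729.9 CPM, a log2 fold change of -0.06 (SE 0.12).

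The 17 proteins of the body and platform of the small subunit, Rps3a1 counted among them, had a median of 0.16, and 16 were positive. Without iKO 3 the median was 0.035 and 14 were positive. Rps13 had 691, 574 and 584 CPM in iKO 3, iKO 4 and iKO 33, against 457, 554 and 542 CPM in WT 2, WT 3 and WT 4. The groups did not overlap, and the log2 fold change was 0.25 (SE 0.13, edgeR adjusted p = 0.414). Rps6, the substrate of S6 kinase and a common readout of mTORC1 activity, had 1460.4, 1173 and 1161 CPM, against 1156, 1147 and 1169.8 CPM. Apart from iKO 3, its other 5 libraries lay within a narrow band, with a log2 fold change of 0.13 (SE 0.12) and of 0.01 without iKO 3. Rpsa, which also serves as a laminin receptor at the cell surface, had 3293, 3065 and 2921 CPM in iKO 3, iKO 4 and iKO 33, against 3176, 2986 and 2779 CPM in WT 2, WT 3 and WT 4. The groups overlapped, with a log2 fold change of 0.05 (SE 0.11). Rps23, a protein of the decoding centre, had 343, 284 and 331 CPM, against 287, 356 and 343 CPM, a log2 fold change of -0.04 (SE 0.13).

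In the large subunit, 40 of 45 tested members had positive values, with a median log2 fold change of 0.10 and of 0.01 without iKO 3. Rpl24, which forms a bridge to the small subunit, was the member with the smallest p. It had 769.8, 618 and 583 CPM in iKO 3, iKO 4 and iKO 33, against 507, 464 and 535 CPM in WT 2, WT 3 and WT 4. The groups did not overlap, and the log2 fold change was 0.39 (SE 0.14, unadjusted p = 0.0253, edgeR adjusted p = 0.261), or 0.26 without iKO 3. It ranked 1232 of 12672 genes by p. Rpl10, which joins the large subunit late in its assembly, had 1839, 1512 and 1501 CPM in the libraries labelled iKO, against 1212, 1471 and 1435 CPM in those labelled WT. The log2 fold change was 0.24 (SE 0.13, edgeR adjusted p = 0.46), with iKO 4 and iKO 33 a little above WT 3. Rpl27 had 855, 705 and 644 CPM, against 601, 608 and 671 CPM, a log2 fold change of 0.23 (SE 0.13, edgeR adjusted p = 0.474), with an overlap between iKO 33 and WT 4.

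The stalk recruits the translation factors, and its 4 genes all had small positive values, 0.08 to 0.18 with a median of 0.12, or 0.02 without iKO 3. Rplp0, the base of the stalk and often used as a reference gene, had 4555, 3839 and 4288 CPM in iKO 3, iKO 4 and iKO 33, against 4111, 4193 and 3682 CPM in WT 2, WT 3 and WT 4. The groups overlapped and the log2 fold change was 0.08 (SE 0.12). Rplp1, at the tip, had 2726, 2165 and 2007 CPM, against 2205, 2063 and 2028 CPM, a log2 fold change of 0.13 (SE 0.14), or -0.0079 when iKO 3 was left out. Rplp2, its partner, had 491, 401 and 352 CPM, against 407, 310.0 and 382 CPM, and Rpl12, beside the stalk, had 1739, 1503 and 1395 CPM, against 1400.1, 1444 and 1481 CPM. Their log2 fold changes were 0.18 (SE 0.16) and 0.10 (SE 0.12). For all 4 the adjusted p in edgeR's quasi-likelihood test was 0.663 or more.

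Around the exit of the peptide tunnel, 7 of 8 tested members were positive, with a median of 0.08 and of -0.04 without iKO 3. Rpl39, a short protein of the tunnel wall, had 912, 787 and 641 CPM in iKO 3, iKO 4 and iKO 33, against 493, 614 and 729 CPM in WT 2, WT 3 and WT 4. The groups overlapped, and the log2 fold change was 0.35 (SE 0.19, edgeR adjusted p = 0.435). Rpl35, at the tunnel exit, had 855, 681 and 722 CPM, against 932, 819 and 719 CPM, a log2 fold change of -0.13 (SE 0.14). Rpl5 and Rpl11 form with 5S rRNA the particle that can bind Mdm2 when ribosome assembly is disturbed. Rpl5 had 1784, 1526 and 1801 CPM, against 1408, 1884 and 1625 CPM, and Rpl11 had 1046, 839 and 621 CPM, against 899, 678 and 788 CPM. The groups overlapped for both, with log2 fold changes of 0.06 (SE 0.14) and 0.08 (SE 0.21). Rpl41, the shortest protein of the family with 75 coding bases, had 2015, 1658 and 1358 CPM in iKO 3, iKO 4 and iKO 33, against 1471, 1389 and 1518 CPM in WT 2, WT 3 and WT 4, a log2 fold change of 0.20 (SE 0.16).

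The most negative values of the family belonged to Rpl7 and Rpl37a, both of the large subunit. Rpl7 had 1778, 1560.1 and 1723 CPM in iKO 3, iKO 4 and iKO 33, against 1774, 2186 and 1736 CPM in WT 2, WT 3 and WT 4. Rpl37a had 618, 493 and 569 CPM, against 556, 755 and 583 CPM. In both the highest library was WT 3, the groups overlapped, and the log2 fold change was -0.17 (SE 0.13 for Rpl7 and 0.16 for Rpl37a). Rpl7a had 1735, 1495 and 1468 CPM, against 1785, 1795 and 1549 CPM, a log2 fold change of -0.13 (SE 0.12). For these 3 genes and for Rpl35, Rps25 and Rps23 the adjusted p in edgeR's quasi-likelihood test was 0.592 or more. The seventh member with a negative value was Rpl14, at -0.02 (SE 0.12). Relative to the rest of the family, that is after scaling to its summed counts, values ran from -0.29 to 0.26 and 0 members had an unadjusted p under 0.05 in edgeR; the smallest were 0.0736 for Rpl7a and 0.0749 for Rpl24.

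**Figure D5:**
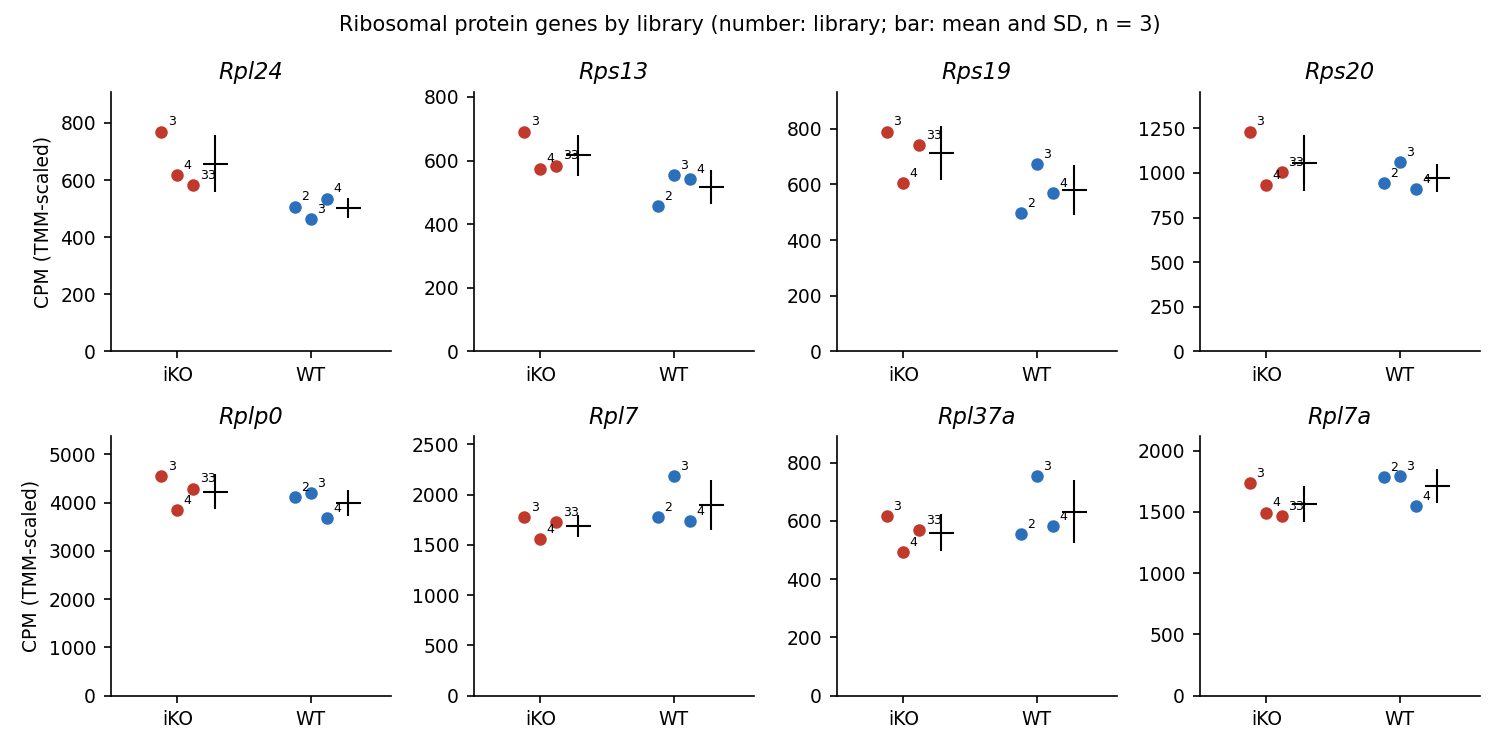
CPM of single members in each library, libraries labelled iKO left of those labelled WT, with the group mean and SD (n = 3) as a cross beside the points. Library iKO 3 is the highest for Rpl24, Rps13, Rps19, Rps20 and Rplp0, and for Rpl24 and Rps13 all 3 points of the libraries labelled iKO lie above all 3 of those labelled WT.

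Of the 6 members with mouse mutants known for pigment, limb or skeletal defects, all had positive values, with a median of 0.18 and of 0.06 without iKO 3, and 3 of 6 were positive without it. Rpl24, described above, is the gene of the Belly spot and tail mutant. Rps19, mutated in a dark skin mutant and in human Diamond-Blackfan anaemia, had 789.9, 605 and 742 CPM in iKO 3, iKO 4 and iKO 33, against 497, 674 and 569.6 CPM in WT 2, WT 3 and WT 4. Library iKO 4 was below WT 3, and the log2 fold change was 0.30 (SE 0.16, edgeR adjusted p = 0.432). Rps20, of another dark skin mutant, had 1232, 931 and 1005 CPM, against 944, 1060.2 and 911 CPM, a log2 fold change of 0.12 (SE 0.14), or -0.0049 when iKO 3 was left out. Rps7 had 1301, 995 and 1026 CPM, against 1101, 964 and 974 CPM, and Rpl27a had 1439, 1138 and 1119 CPM, against 1396, 1101 and 1078 CPM. In both genes a library of each group stood above the other two. Rpl38, of the Tail-short mutant, had 435, 397 and 327 CPM, against 314, 308 and 370.1 CPM, a log2 fold change of 0.22 (SE 0.14, edgeR adjusted p = 0.517).

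The other 46 tested members ran from -0.02 to 0.32, 45 of them positive, with adjusted p in edgeR of 0.482 to 0.996. The 4 X-linked members, Rpl10, Rpl36a, Rpl39 and Rps4x, were all positive with a median of 0.20, and of 0.11 without iKO 3, and the 71 autosomal ones had a median of 0.13 and of 0.03 without iKO 3. The 11 members with under 50% of their coding windows in a copy had a median of 0.13, all 11 positive. The 64 tested others had a median of 0.13. Without iKO 3 the medians were 0.011, with 7 of 11 positive, and 0.029. The part of shared sequence in these values was not tested. Across the 75 members Spearman's rho between the log2 fold change and the share of windows in a copy was 0.0079, and with mRNA length it was -0.35, or -0.17 without iKO 3. These correlations are across genes counted in the same 6 libraries, and genes are not independent replicates. Members with a pyrimidine run in the promoter window (45 tested) had a median of 0.13, and the 10 whose window held no such run had a median of 0.17. Without iKO 3 these medians were 0.022 and 0.066.

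Ribosomal proteins whose symbols the rule does not take had like values. Fau, a fusion of a small subunit protein with a ubiquitin-like one, had 1014, 719 and 692 CPM in iKO 3, iKO 4 and iKO 33, against 585, 694 and 630.3 CPM in WT 2, WT 3 and WT 4, a log2 fold change of 0.34 (SE 0.17, edgeR adjusted p = 0.398). Gnb2l1, the scaffold protein also called Rack1, was at 0.13 (SE 0.10) and Rps3a1 at 0.08 (SE 0.12). In these 3 genes the highest library was iKO 3, as in most members. Of the paralogues and related genes, several of which can take the place of a ribosomal protein, 4 of 6 tested had positive values. Rps27l, a paralogue of Rps27 and a p53 target, had 160.3, 172 and 176 CPM in the libraries labelled iKO, against 129, 161 and 153 CPM in those labelled WT, where Rps27 itself was at 2.07 ± 0.43 and 1.80 ± 0.167 CPM (SD, n = 3 each). Rpl22l1 had a log2 fold change of 0.33 (SE 0.28) and Rpl36al of 0.18 (SE 0.19), or -0.06 without iKO 3.

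Other mRNAs with an oligopyrimidine tract, 25 genes that mostly encode translation factors, were positive in 17 and negative in 8, with a median of 0.08. Library iKO 3 was the highest in 8 of these 25. Eef1a1, the elongation factor that brings aminoacyl-tRNA and the most abundant of them, had 10124 to 10761 CPM in libraries labelled iKO, against 9787 to 10337 CPM in those labelled WT, a log2 fold change of 0.04 (SE 0.10). Eif4a2, a helicase of initiation, was at 0.32 (SE 0.13, edgeR adjusted p = 0.324), Eef1b2, an exchange factor for Eef1a1, at 0.27 (SE 0.14, edgeR adjusted p = 0.426) and Eif2s3x, an X-linked subunit of eIF2, at -0.22 (SE 0.12, edgeR adjusted p = 0.436). None of the 25 was called by edgeR or by DESeq2, against 0.339% and 5.74% of all genes. At an unadjusted p under 0.05 in edgeR 1 was higher and 0 were lower, against 7.32% and 7.7% of all tested genes.

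The proteins of the mitochondrial ribosome, a separate set of 76 genes, leaned the other way. Log2 fold changes were negative in 53 and positive in 23, with a median of -0.06, and of -0.10 without iKO 3. In 15 of the 76 the groups did not overlap with lower values in libraries labelled iKO, and in 2 with higher ones, where 11.3% and 10.5% of all tested genes were lower and higher without overlap. Mrps30 had 32.3, 31.3 and 34.0 CPM in iKO 3, iKO 4 and iKO 33, against 45.8, 44.99 and 47.7 CPM in WT 2, WT 3 and WT 4, a log2 fold change of -0.51 (SE 0.10, edgeR adjusted p = 0.108, DESeq2 adjusted p = 0.00246). Mrpl15 had 51.8, 54.2 and 55.8 CPM, against 72.2, 77.9 and 65.1 CPM, and Mrps27 had 26.9, 29.8 and 32.4 CPM, against 41.9, 40.8 and 36.9 CPM. In these 3 genes iKO 3 lay with the other libraries labelled iKO. Of the 76, 0 were called by edgeR, with 2 higher and 12 lower at an unadjusted p under 0.05 (7.32% and 7.7% of all tested genes), and DESeq2 called 1, Mrps30 (5.74% of all genes).

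Among 27 regulators of ribosomal protein synthesis, 16 were positive and 11 negative, with a median of 0.04, and edgeR called 0. At an unadjusted p under 0.05 in edgeR, 3 were higher and 2 lower, where 7.32% and 7.7% of all tested genes were, and DESeq2 called 3, against 5.74% of all genes. These few calls are read against those shares. The groups did not overlap for 2 of the 27 that were higher and 3 that were lower, against 10.5% and 11.3% of all tested genes. The 3 called by DESeq2 were among them. Myc, a transcription factor that drives ribosome production, had 123, 114 and 133 CPM in iKO 3, iKO 4 and iKO 33, against 208, 171 and 171 CPM in WT 2, WT 3 and WT 4, a log2 fold change of -0.57 (SE 0.12, edgeR adjusted p = 0.121, DESeq2 adjusted p = 0.00724). Sesn2, a stress-induced inhibitor of mTORC1 signalling, had 34.9, 30.1 and 36.0 CPM, against 19.2, 23.8 and 22.4 CPM, a log2 fold change of 0.63 (SE 0.14, edgeR adjusted p = 0.123, DESeq2 adjusted p = 0.00874). Deptor, an mTOR-binding inhibitor, had 7.99, 4.29 and 3.87 CPM, against 18.2, 18.8 and 9.50 CPM, a log2 fold change of -1.53 (SE 0.38, edgeR adjusted p = 0.156, DESeq2 adjusted p = 0.00209).

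The p53 genes tied to ribosomal protein mutants were split, 3 positive and 3 negative of 6. With edgeR 0 were called, against 0.339% of all tested genes, and DESeq2 called 2, against 5.74% of all genes. At an unadjusted p under 0.05 in edgeR 2 were higher and 0 lower, against 7.32% and 7.7% of all tested genes. These p53 genes are named after their values were seen. Cdkn1a, the cell cycle inhibitor p21, had 464, 343 and 414 CPM in iKO 3, iKO 4 and iKO 33, against 234, 263 and 246 CPM in WT 2, WT 3 and WT 4, a log2 fold change of 0.72 (SE 0.14, edgeR adjusted p = 0.0967, DESeq2 adjusted p = 0.0013). Mdm2, the ligase that degrades p53, had 149, 133 and 167 CPM, against 89.3, 111 and 100.1 CPM, a log2 fold change of 0.58 (SE 0.13, edgeR adjusted p = 0.137, DESeq2 adjusted p = 0.0178). Kitl, the melanocyte growth factor made by keratinocytes in dark skin mutants, had 1.63, 1.69 and 5.61 CPM, against 3.18, 8.40 and 4.15 CPM, with overlapping groups and a log2 fold change of -0.81 (SE 0.59, edgeR adjusted p = 0.58).

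Of 18 chaperones, importins and quality-control factors of ribosomal proteins, 8 were positive and 10 negative. None was called by edgeR or DESeq2, against 0.339% and 5.74% of all genes. At an unadjusted p under 0.05 in edgeR 1 was higher and 0 were lower, against 7.32% and 7.7% of all tested genes. Nemf, which marks stalled large subunits, had 83.3, 72.6 and 84.7 CPM in iKO 3, iKO 4 and iKO 33, against 43.5, 74.4 and 51.1 CPM in WT 2, WT 3 and WT 4, a log2 fold change of 0.51 (SE 0.20, edgeR adjusted p = 0.312). Its partner ligase Ltn1 was at 0.20 (SE 0.12) and the importin Ipo9 at -0.40 (SE 0.19). Host genes of small nucleolar RNAs, whose spliced RNAs also begin with a pyrimidine tract, were positive in 10 of 13 tested, with a median of 0.14 that was -0.08 without iKO 3. Library iKO 3 was the highest in 11 of the 13. Snhg6 had 22.5, 19.6 and 19.0 CPM in the libraries labelled iKO, against 10.1, 16.02 and 13.1 CPM in those labelled WT, a log2 fold change of 0.64 (SE 0.19, edgeR adjusted p = 0.207). Snhg8 was at 0.63 (SE 0.25, edgeR adjusted p = 0.306) with all 6 libraries and at 0.30 without iKO 3, and Taf1d was at 0.32 (SE 0.20).

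In the authors' deposited table, 67 members had positive and 9 had negative log2 fold changes, with 0 past an adjusted p of 0.05. The smallest adjusted p of a member in the authors' deposited table was 0.175, for Rpl24, at a log2 fold change of 0.36. The range of the members in the authors' deposited table was -0.16 to 0.36.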

How the data were processed

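Messenger RNA of cultured mouse epidermal keratinocytes was sequenced in 6 libraries, 3 labelled iKO and 3 labelled WT. The deposited table holds whole-number read counts per gene symbol. Per the submitters' processing notes, the tools were TopHat2, HTSeq, DESeq and DESeq2 (no versions), with mm10 as the build. Not given in the sources used here are the annotation, the strandedness of counting and the length of the reads. The HTSeq summary rows, 27.4% to 35.5% of all counts in a library, entered neither library sizes nor tests. The second deposited table has DESeq2 columns per the file headers, namely a normalised mean signal, log2 fold changes with SE, a Wald score and p-values. The iKO column numbered 33 matches no title and was used as an unnumbered replicate of its group. No pair of libraries agreed within sampling noise.

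The counts were fitted with edgeR 4.0.16 under R 4.3.3: filterByExpr (minimum count 10, 12672 genes), TMM scaling, and a robust glmQLFit followed by a two-sided glmQLFTest, Benjamini-Hochberg adjusted over all tested genes. The SE is approximate, taken as the size of the log2 fold change over the root of the F statistic. Log2 CPM used a prior count of 2. DESeq2 1.42.0 and limma 3.58.1 (voom) were alternatives, with other scalings and filters, a replicate block and leaving out each library. The added alternative, members with under 50% shared windows, was chosen after seeing the data. The fit was tested on simulated data. Coding sequences and mRNA lengths come from GENCODE vM21, copies from blastn 2.17.0. Members and gene lists were chosen with earlier results of these data known. The members described singly were the 10 with the smallest p, the 6 most negative, the 3 highest per kb, and genes of the stalk, the 5S particle and skin mutants with Rpsa, Rps6 and Rps27a. From each other list up to 3 genes with the smallest p were described, plus Eef1a1, Trp63, Krt15, Cdkn1a, Mdm2, Kitl and the sex-linked genes. Single values of a few genes that this rule takes are not reported here; they remain in all counts and medians.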

Additional observations from a re-analysis of the deposited data

How the results depend on the processing

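Under every setting run, 0 members were called and the family's median log2 fold change stayed positive. The median was 0.13 with all libraries, 0.0078 when scaled to the family (where the median of all genes was -0.10), 0.22 when library totals held the summary rows (0.10 over all genes), and 0.03 to 0.18 with 1 library left out, lowest without iKO 3. With those summary rows in the totals, 15 of 75 members were higher at an unadjusted p under 0.05 in edgeR, against 1 in the main fit. The share of all genes past that limit was not counted for this setting. The 43 calls over all genes became 76 with no count filter, 760 with DESeq2, 4 with the libraries numbered 3 and 4 alone and unblocked, and 7 to 31 with 1 library left out (20 without iKO 3, 13 without iKO 4, 17 without iKO 33, 7 without WT 2 and 21 without WT 4). With a replicate block on the libraries that share the numbers 3 and 4 there were 103 calls and a member median of 0.19; deviations from the group means correlated at 0.297 and 0.661 in these pairs, which share only a number. DESeq2 brought Myc, Sesn2, Deptor, Mrps30, Cdkn1a and Mdm2 past the threshold.

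Over all 75 tested members, 68 values were positive with all libraries, 42 when scaled to the family and 51 without iKO 3, so many values turned under these settings. The 29 members chosen to be described singly gave 551 values under the alternatives, of which 528 kept their direction and 23 turned. Among these members, scaled to the family, those that turned were Rplp0 (-0.032), Rpl12 (-0.018), Rpsa (-0.059), Rpl5 (-0.055), Rpl11 (-0.047), Rps20 (-0.0018) and Rpl27a (-0.074). With summary rows they were Rps25 (0.034) and Rps23 (0.048). Rpl5 was at -0.0851 with the block and -0.0847 with the same libraries unblocked. With 1 library left out, the values that turned ran from -0.0079 to 0.22 for Rplp1, -0.11 to 0.26 for Rpl11, -0.0049 to 0.20 for Rps20, -0.0023 to 0.20 for Rps7, -0.077 to 0.18 for Rpl27a, -0.044 to 0.17 for Rpl5, -0.0046 to 0.10 for Rpsa, -0.13 to 0.035 for Rps23 and, outside the family, -0.056 to 0.32 for Rpl36al. Except for Rpl5, Rpsa and Rps23, each lowest value was the one without iKO 3. Scaling to the family centres its values by construction, and totals with summary rows moved the median of all genes to 0.10. The cause of the changes with the block or with 1 library left out was not tested.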
